A study of Camelina sativa with 41 samples.

Results

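Of the 89418 genes in the seed count table of Camelina sativa, the 100 with the highest mean level over 9 libraries are described here. They are 0.112% of the genes. A level is given as CPM, counts scaled to 1000000 counts per library. The 100 were chosen by these levels, so the levels describe the choice and were not tested. The last genes taken were Csa13g002270, Csa16g047170 and Csa05g014400, at mean levels of 489.4, 486.4 and 485.0 CPM. The next 3, which were left out, were Csa09g075750, Csa17g016370 and Csa13g048350, at 482.7, 482.2 and 481.6 CPM.

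Camelina is an oilseed of the mustard family and a close relative of Arabidopsis. Its genome is hexaploid, and 3 sets of similar chromosomes often carry near-identical copies of a gene. A developing seed contains an embryo, an endosperm that feeds it and a maternal seed coat. As such seeds leave early growth and begin to fill, transcripts for storage proteins and oil synthesis are known to become abundant in the mustard family. The files pair no gene ID with a name, and none of the 89418 IDs was found in the reference table (0 matches among 98741 genes). No function is therefore given to any member, and seed marker genes could not be checked.

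The plants were greenhouse-grown cultivar Suneson, labelled wild type, and no mutant or treatment was part of the seed comparison. The RNA came from seeds taken 5, 8 and 11 days after flowering (days post-anthesis, DPA) in 3 biological replicates each. The labels' protocols speak once of seedpods and once of fresh seed. Each library was bulk RNA, so a change in the number of cells of a type and a change in RNA per cell cannot be told apart. Messenger RNA was sequenced with a kit that keeps the strand.

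Library totals ran from 38268473 to 46863553 counts, except for 15659011 in 5 DPA replicate 1, for which only the first run was used. A floor of 3 counts corresponds to 0.192 CPM in that library and to 0.064 to 0.0784 CPM in the others, for counting error only. The median member had 10650 to 32165 counts per library, and 78 members had at least 1000 counts in every library. Most members were therefore deeply counted, but 7 were at or under 3 counts in at least 1 library. Others lay above that floor with few counts at 5 DPA, such as Csa09g096810 with 15, 55 and 37. All 100 passed the filter on low counts, as did 63017 genes in all. How reads that match several copies were counted is not known, so the counts of every gene named here are uncertain to that extent.

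The 100 genes held between 8.58% and 12.5% of the counts of a library, and most at 11 DPA. The order of the ages depends on the ranking: the 100 genes with the highest mean of log2(CPM + 1), of which 77 are the same, held 9.54%, 9.68% and 7.24% at 5, 8 and 11 DPA. At 5 DPA they held 9.33%, 8.58% and 9.75% of the counts in replicates 1, 2 and 3, a mean of 9.22% ± 0.59 (SD, n = 3). At 8 DPA they held 9.81%, 9.97% and 9.61%, a mean of 9.8% ± 0.183 (SD, n = 3). At 11 DPA they held 12.5%, 10.8% and 10.9%, a mean of 11.4% ± 0.977 (SD, n = 3). The 5 and 8 DPA libraries overlapped, and every 11 DPA library lay above all 6 younger ones. The highest share was that of 11 DPA replicate 1. When the 100 were chosen on 2 replicate numbers and read in the other one, the shares were 9.22% ± 0.673, 9.71% ± 0.353 and 11.1% ± 0.599 at 5, 8 and 11 DPA (SD, n = 3 each), and 95 to 97 of the genes were the same.

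The counts of the 100 lay in fewer genes at 11 DPA than before. The 10 highest members held 2.55% ± 0.421, 3.45% ± 0.177 and 3.6% ± 0.434 of the counts at 5, 8 and 11 DPA (SD, n = 3 each), and the 2 older ages overlapped. Of the counts of the 100, 50% lay in 18 members at 5 DPA, 17 at 8 DPA and 12 at 11 DPA. The 1000 highest genes held 28.2% ± 0.802, 28.0% ± 0.406 and 28.6% ± 1.08 at the 3 ages (SD, n = 3 each), with overlapping libraries.

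The genes that were most abundant changed from age to age. Of the members, 65 were among the 100 highest genes at 5 DPA, 77 at 8 DPA and 65 at 11 DPA. Only 31 were so at all 3 ages, 45 at exactly 2 ages and 24 at exactly 1. Of those 24, 9 belonged to 5 DPA, 3 to 8 DPA and 12 to 11 DPA. The lists made for each age separately shared 57 genes between 5 and 8 DPA, 54 between 8 and 11 DPA and 33 between 5 and 11 DPA. A gene could thus enter the 100 through 1 age alone, which builds differences between ages into the choice.

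Each gene was tested between ages with edgeR's quasi-likelihood test, in a fit over all 63017 genes, and called at a Benjamini-Hochberg adjusted p under 0.05. Of the 100 members, 83 differed among the 3 ages, against a background of 62.1% of all genes tested. The next 100 genes by rank also had 83, so this count is not particular to the members. From 5 to 8 DPA 62 members were called, against a background of 35.6%: 35 rose and 27 fell, where the background was 18.1% and 17.5%. From 8 to 11 DPA 65 were called, against 40.5%: 21 rose and 44 fell, where the background was 20.8% and 19.7%. In the next 100 genes by rank the rises and falls numbered 27 and 29 in the first step and 20 and 43 in the second. Changes of at least 2-fold were called upward in 24 and downward in 10 members from 5 to 8 DPA, where the background was 8.43% and 8.75%. From 8 to 11 DPA they were called upward in 16 and downward in 27, where it was 8.92% and 8.79%. Among the next 100 genes by rank, 19 had such a rise and 11 such a fall in the first step. In the second step 9 of those genes had such a rise and 24 such a fall.

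Over the whole span from 5 to 11 DPA 80 members were called, against a background of 59.0%. Of these 38 rose and 42 fell, where the background was 29.8% and 29.1%. The rises were larger than the falls. Called rises ran from log2 0.29 to 14.16 with a median of 4.45, and called falls from log2 -6.63 to -0.33 with a median of -1.9. A change of at least 2-fold was called upward in 26 members, where the background was 15.1%, and downward in 32, where it was 15.3%. The median absolute log2 change of the members was 1.45, against 0.54 over all genes tested, and the median signed change was -0.2 against 0. In the next 100 genes by rank 32 rose and 47 fell, 21 and 29 of them by at least 2-fold. The median absolute log2 change there was 1.01, so the number of calls was much like that of the members.

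Replicates of the ages compared did not overlap for 74 members from 5 to 8 DPA, against a background of 53.7% of genes tested. They did not overlap for 84 members from 8 to 11 DPA, where the background was 55.9%, and for 84 from 5 to 11 DPA, where it was 63.3%. Every member called in either step had replicates that did not overlap. The 2 steps themselves differed in 40 members, against a background of 19.4%. The later change was the higher of the 2 in 9 and the lower in 31, where the background was 7.73% and 11.7%. The count of 40 was 26 without 8 DPA replicate 2. Among the next 100 genes by rank the later change was the higher in 4 and the lower in 30. The larger number with a lower later change was therefore not particular to the members.

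**Figure D1:**
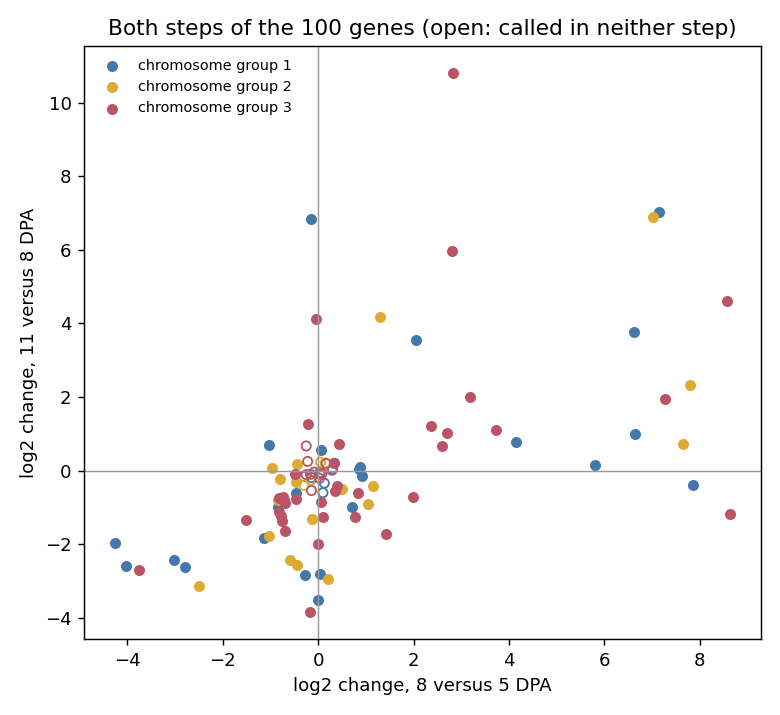
Log2 change from 5 to 8 DPA (horizontal) against log2 change from 8 to 11 DPA (vertical) for each of the 100 genes, coloured by chromosome group and open where neither step was called. Called rises reach log2 8.63 in the first step and 10.81 in the second, while called falls end at -4.26 and -3.85, and the 2 axes share the 8 DPA libraries.

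Most members differed by at least 2-fold between ages, and a smaller number by far more. The ratio of the highest to the lowest age mean was under 1.5 in 21 members and at least 2 in 63. It was at least 10 in 30 members, at least 100 in 14 and at least 1000 in 6. The mean was highest at 5 DPA in 41 members, at 8 DPA in 28 and at 11 DPA in 31. The members are described next by their calls in the 2 steps, which also set the direction of each class's share.

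The 15 members called higher in both steps gained the most counts of all timing classes. Together they held 0.218%, 0.198% and 0.282% of the counts at 5 DPA, 1.24%, 1.29% and 1.45% at 8 DPA, and 6.87%, 4.88% and 5.13% at 11 DPA. The ages did not overlap, and 11 DPA replicate 1 was the highest. Their means were 0.233% ± 0.0435, 1.33% ± 0.108 and 5.63% ± 1.08 (SD, n = 3 each). Over all genes tested, 6.93% were called higher in both steps. Their median deposited length was 999 bases, against 1866 for the 100, and 10 of the 15 were under 1500 bases.

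The highest of the 100 by mean level was Csa09g075850, with 999 bases. It had 739.5, 490.6 and 1010.7 CPM at 5 DPA, then 3666.7, 4178.4 and 4069.9 CPM at 8 DPA and 9654.3, 7550.3 and 8726.3 CPM at 11 DPA. The ages were well apart, with every replicate above all those of the age before. The log2 change was 2.37 ± 0.26 (SE, edgeR adjusted p = 0.000118) in the first step and 1.2 ± 0.25 (SE, adjusted p = 0.00438) in the second.

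The genes with the IDs on either side of it, Csa09g075840 and Csa09g075860, were members too, and all 3 were called higher in both steps. Csa09g075860 had 681.1, 531.5 and 938.5 CPM at 5 DPA, then 4285.3, 4446.2 and 4635.1 CPM at 8 DPA and 5996.5, 6996.9 and 7393.5 CPM at 11 DPA. The ages did not overlap. Its log2 change was 2.59 ± 0.21 (SE, edgeR adjusted p = 2.35e-05) in the first step. In the second it was 0.68 ± 0.2 (SE, adjusted p = 0.0231), and this call was lost without 8 DPA replicate 1, 2 or 3 (adjusted p = 0.0847, 0.0731 and 0.0546) or without 11 DPA replicate 3 (0.0514). For this gene the second change was smaller than the first (adjusted p of the difference 0.00458). Csa09g075840, chosen after its values were seen, was lower, at 74.1 to 150.9 CPM at 5 DPA, 653.8 to 750.9 at 8 DPA and 1188.5 to 1470.3 at 11 DPA. Log2 CPM of neighbouring genes of the trio correlated at r = 0.99 over the 9 libraries, which include the differences between ages.

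Another set on chromosome 9 went from low levels at 5 DPA to the top of the libraries at 11 DPA. Csa09g096810 had 0.958, 1.4 and 0.839 CPM at 5 DPA, from 15, 55 and 37 counts. It had 335.4, 296.8 and 637.3 CPM at 8 DPA and 12852.2, 8089.3 and 8449.1 CPM at 11 DPA. No gene was more abundant in 11 DPA replicates 1 and 2, while Csa09g075850 led replicate 3. Its log2 change was 8.57 ± 0.46 (SE, edgeR adjusted p = 3.23e-06) in the first step and 4.62 ± 0.37 (SE, adjusted p = 3.5e-05) in the second. The first change was the larger (adjusted p of the difference 0.00169).

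Csa09g096800, the next lower ID, was low at both younger ages. It had 0.383, 0.459 and 0.0453 CPM at 5 DPA, from 6, 18 and 2 counts, and 2.06, 1.13 and 2.8 CPM at 8 DPA. At 11 DPA it had 5936.1, 2122.9 and 1964.7 CPM. Its 10.81 ± 0.76 (SE, edgeR adjusted p = 2.03e-05) was the largest log2 rise of any member from 8 to 11 DPA, and it was 10.06 without 11 DPA replicate 1. In the first step its log2 change was 2.83 ± 0.81 (SE, adjusted p = 0.0224), or 3.74 without 5 DPA replicate 2. Leaving out 5 DPA replicate 3 (log2 2.15, adjusted p = 0.0807) or 8 DPA replicate 3 (adjusted p = 0.07) ended that call.

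Csa09g096540 rose late as well. It had 18.1, 13.5 and 14.8 CPM at 5 DPA, then 84.5, 78.7 and 168.0 CPM at 8 DPA and 9432.4, 4953.3 and 4981.4 CPM at 11 DPA. All ages were apart, and 11 DPA replicate 1 was again the highest. The log2 changes were 2.8 ± 0.38 (SE, edgeR adjusted p = 0.00042) and 5.96 ± 0.43 (SE, adjusted p = 2.29e-05), the second larger than the first (adjusted p of the difference 0.00961).

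Csa07g063460, on chromosome 7, had the widest range of all members. It had 0.0639, 0.382 and 0.0 CPM at 5 DPA, from 1, 15 and 0 counts, so that replicates 1 and 3 lay at or under the floor. It had 20.1, 10.7 and 41.6 CPM at 8 DPA and 4196.6, 2308.9 and 2280.2 CPM at 11 DPA. Both steps were called, at log2 7.15 ± 0.85 (SE, edgeR adjusted p = 0.000201) and 7.02 ± 0.68 (SE, adjusted p = 8.37e-05). The size of the first change moved with single libraries, while its call was kept. It was 10.18 without 5 DPA replicate 2, 6.37 without 5 DPA replicate 3 and 6.51 without 8 DPA replicate 3 (adjusted p = 0.000409, 0.0011 and 0.000476). The second was 7.66 without 8 DPA replicate 3. Csa16g054910, chosen after its values were seen, followed a like course, from 0.0453 to 0.56 CPM at 5 DPA through 27.5 to 73.6 at 8 DPA to 3649.8 to 7278.5 at 11 DPA. Its 5 DPA values rest on 8, 22 and 2 counts.

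**Figure D2:**
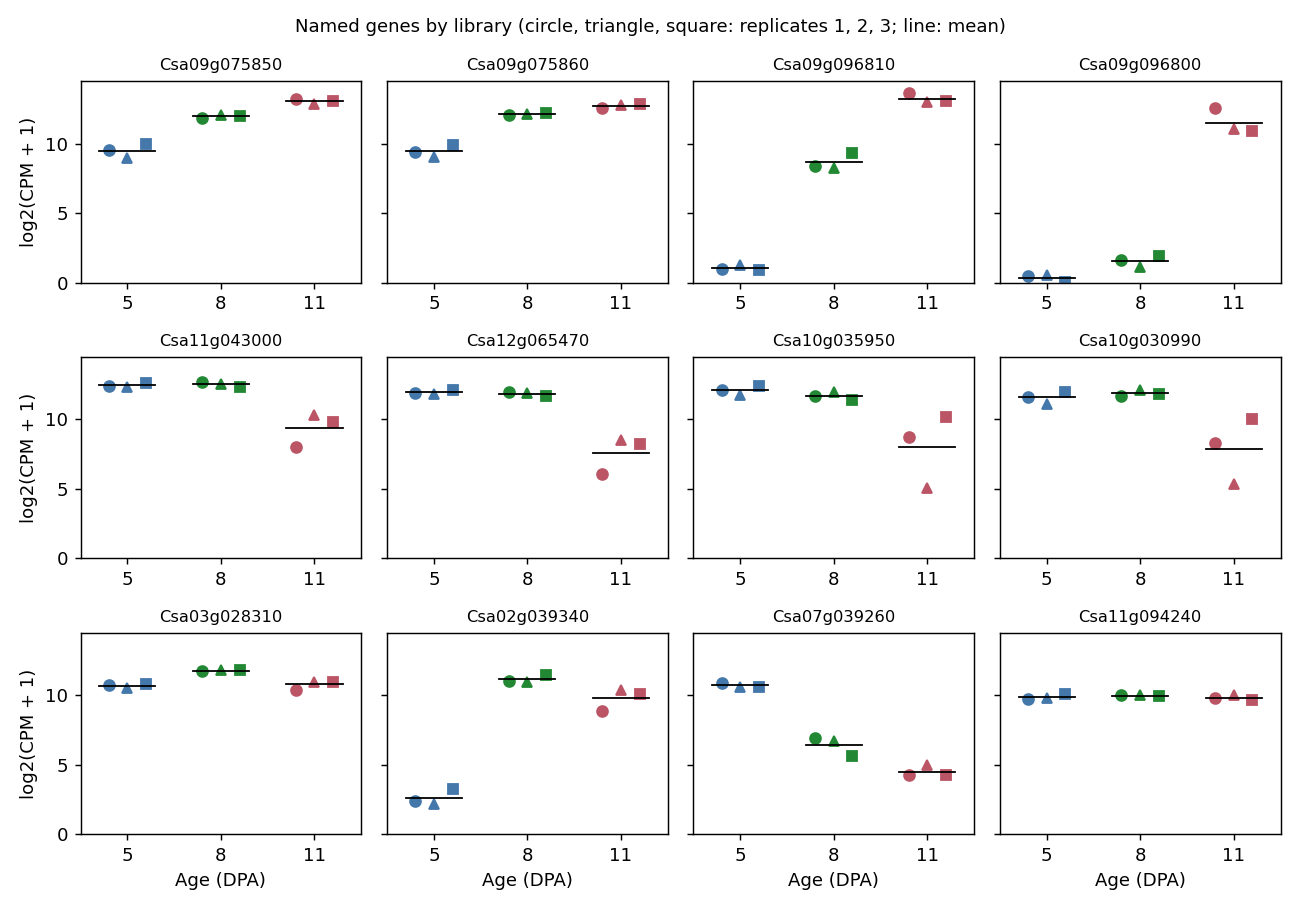
Log2(CPM + 1) of named genes by age (DPA), with a symbol for each replicate and a line through the mean of each age. Csa09g096810 climbs from 0.839 to 1.4 CPM at 5 DPA to at least 8089.3 CPM at 11 DPA, while Csa11g094240 stays between 795.1 and 1080.8 CPM.

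Another 5 members were not called in the first step and rose in the second. They held 0.175% ± 0.0379, 0.193% ± 0.00423 and 1.04% ± 0.268 of the counts at 5, 8 and 11 DPA (SD, n = 3 each), and 11.6% of all genes tested had the same calls. Csa18g032610 and Csa07g063280 of this set were chosen after their values were seen. Csa18g032610 had 75.3, 193.3 and 39.7 CPM at 5 DPA, then 240.2, 227.4 and 316.4 CPM at 8 DPA and 5009.8, 3874.0 and 4476.9 CPM at 11 DPA. Its first change was log2 1.3 (edgeR adjusted p = 0.0554), which was called without 5 DPA replicate 2 (log2 2.15, adjusted p = 0.000792) and with no filter on low counts (0.0482). Its second change was log2 4.17 ± 0.52 (SE, edgeR adjusted p = 0.000308). Csa07g063280, the longest member at 17302 bases, had 16.6 to 19.5 CPM in all 6 younger libraries and 3684.1, 893.6 and 1001.0 CPM at 11 DPA. Its second change was log2 6.84 ± 0.61 (SE, edgeR adjusted p = 5.93e-05), and 5.82 without 11 DPA replicate 1.

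Members that were not called in the first step and fell in the second were the other large block. These 11 held 2.9%, 2.46% and 3.31% of the counts at 5 DPA, 2.87%, 3.0% and 2.51% at 8 DPA, and 0.247%, 0.458% and 0.607% at 11 DPA. The younger ages overlapped and the oldest lay far below them, with replicate 1 lowest. Their means were 2.89% ± 0.426, 2.79% ± 0.253 and 0.437% ± 0.181 (SD, n = 3 each), and 10.1% of all genes tested had these calls. Of the 11, 9 carry an ID of chromosome 10, 11 or 12, as do 23 of the 100 and 17.3% of all genes with a chromosome number. This grouping was noticed after the values were seen and was not tested.

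Csa11g043000, next to the highest member by mean level, was the most abundant gene of 5 DPA replicates 2 and 3 and of all 8 DPA libraries, and Csa11g035330 led 5 DPA replicate 1. Csa11g043000 had 5372.9, 5103.2 and 6354.3 CPM at 5 DPA, then 6510.5, 5930.4 and 5212.8 CPM at 8 DPA and 259.8, 1273.3 and 904.3 CPM at 11 DPA. The younger ages overlapped (log2 change 0.03, edgeR adjusted p = 0.972), and the second step was a fall of log2 -2.8 ± 0.46 (SE, adjusted p = 0.0013). Csa11g035330 had 4367.8 to 5842.0 CPM in the younger libraries and 183.4, 603.1 and 554.5 CPM at 11 DPA, a log2 change of -3.52 ± 0.39 (SE, edgeR adjusted p = 0.000158). Csa12g065470 had 3228.1 to 4374.8 CPM in the younger libraries and 67.9, 365.5 and 299.4 CPM at 11 DPA. Its log2 change of -3.85 ± 0.51 (SE, edgeR adjusted p = 0.00041) was the largest fall of any member in the second step. In each of these 3 genes the 2 steps differed (adjusted p of the difference 0.0235, 0.00338 and 0.00925), and 11 DPA replicate 1 was the lowest library.

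A pair on chromosome 10 was as abundant early but uneven at 11 DPA. Csa10g035950 had 4464.3, 3474.7 and 5460.2 CPM at 5 DPA, then 3364.4, 4021.2 and 2689.5 CPM at 8 DPA and 421.9, 32.4 and 1177.5 CPM at 11 DPA. Csa10g030990 had 3201.7, 2201.9 and 4040.9 CPM at 5 DPA, then 3306.5, 4360.7 and 3604.8 CPM at 8 DPA and 322.3, 39.4 and 1039.1 CPM at 11 DPA. Both were lowest in 11 DPA replicate 2, by more than 5-fold against replicates 1 and 3, whereas the genes on chromosomes 11 and 12 above were lowest in replicate 1. The second-step log2 change was -2.56 ± 0.89 (SE, edgeR adjusted p = 0.0452) for Csa10g035950 and -2.95 ± 0.86 (SE, adjusted p = 0.0223) for Csa10g030990.

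These calls were fragile. For Csa10g035950 the call was lost without any single library of 5 or 8 DPA or without 11 DPA replicate 1 (adjusted p from 0.051 to 0.109), and the change was -3.76 without 11 DPA replicate 3. For Csa10g030990 leaving out 8 DPA replicate 2 (0.0579) or 11 DPA replicate 1 (0.0644) ended it, and the change was -4.26 without 11 DPA replicate 3. Csa11g103550, which was called in neither step, was another member more than 5-fold lower in 11 DPA replicate 2, at 161.3 CPM against 868.1 and 1085.0. It was named after its values were seen. Among the next 900 genes by rank there were 4 more of this kind.

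Of the 9 falling members on chromosomes 10, 11 and 12, 6 had deposited lengths in near-equal sets of 3. The other 3 did not form such a set. Csa10g035950, Csa11g043000 and Csa12g065470 have 1366, 1364 and 1344 bases. Csa10g030990, Csa11g035330 and Csa12g055610 have 3090, 3186 and 3243 bases. Csa12g055610, chosen after its values were seen, had a smaller fall by value: 1191.2 to 2000.2 CPM in the younger libraries and 420.6, 865.9 and 820.3 CPM at 11 DPA. Its second-step log2 change was -1.25 ± 0.27 (SE, edgeR adjusted p = 0.00525). Whether these genes are copies of one another is not annotated in the files.

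The largest timing class that fell did so in both steps. These 22 members held 3.15%, 2.86% and 2.91% of the counts at 5 DPA, 1.23%, 1.25% and 0.98% at 8 DPA, and 0.434%, 0.545% and 0.53% at 11 DPA. No ages overlapped. Their means were 2.97% ± 0.156, 1.15% ± 0.151 and 0.503% ± 0.0604 (SD, n = 3 each), and 7.02% of all genes tested fell in both steps. Only 1 of the 22 was among the 100 highest genes at every age.

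The largest falls from 5 to 8 DPA were those of Csa07g039260 and Csa07g022050. Csa07g039260 had 1911.1, 1574.6 and 1562.0 CPM at 5 DPA, then 117.3, 105.9 and 48.0 CPM at 8 DPA and 17.7, 30.3 and 18.3 CPM at 11 DPA. It dropped in both steps with no overlap, by log2 -4.26 ± 0.36 (SE, edgeR adjusted p = 2.79e-05) and -1.96 ± 0.33 (SE, adjusted p = 0.00149). Csa07g022050 had 1724.8, 1514.9 and 1307.1 CPM, then 117.7, 109.8 and 58.9 CPM, then 8.98, 24.3 and 11.7 CPM. Its log2 changes were -4.03 ± 0.4 (SE, edgeR adjusted p = 6.93e-05) and -2.6 ± 0.38 (SE, adjusted p = 0.000694). In both genes 8 DPA replicate 3 was the lowest of its age and 11 DPA replicate 2 the highest of its age.

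The most abundant members that fell in both steps, chosen after their values were seen, were Csa16g034890 and Csa08g043990. Csa16g034890 had 3744.1, 3176.2 and 2726.7 CPM at 5 DPA, then 670.7, 610.8 and 468.8 CPM at 8 DPA and 31.6, 89.9 and 68.1 CPM at 11 DPA. Csa08g043990 had 3227.9, 3016.7 and 3072.6 CPM, then 433.4, 443.1 and 295.9 CPM, then 35.1, 90.4 and 81.0 CPM. At 11 DPA replicate 1 was the lowest for both. First-step log2 changes were -2.5 ± 0.33 and -3.03 ± 0.32 (SE, edgeR adjusted p = 0.000354 and 9.34e-05), and those of the second step were -3.14 ± 0.34 and -2.44 ± 0.31 (SE, adjusted p = 0.00014 and 0.000337). A difference between the steps was not called for either (adjusted p = 0.442 and 0.468).

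A peak at 8 DPA was called in 11 members, which rose in the first step and fell in the second, as did 2.53% of all genes tested. They held 0.773% ± 0.0552, 1.65% ± 0.0521 and 0.889% ± 0.137 of the counts at 5, 8 and 11 DPA (SD, n = 3 each). Csa03g028310 was the highest of them. It had 1728.0, 1481.2 and 1747.0 CPM at 5 DPA, then 3395.1, 3522.7 and 3564.9 CPM at 8 DPA and 1357.1, 2005.1 and 1959.2 CPM at 11 DPA. The 8 DPA libraries lay above all others, while the outer ages overlapped. Its log2 changes were 1.04 ± 0.15 (SE, edgeR adjusted p = 0.000751) and -0.91 ± 0.15 (SE, adjusted p = 0.00157).

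Csa02g039340, in the same class, was low at 5 DPA. It had 4.34, 3.41 and 8.66 CPM at 5 DPA, then 2086.0, 1931.6 and 2808.8 CPM at 8 DPA and 467.0, 1334.0 and 1102.5 CPM at 11 DPA. The ages did not overlap, and its first change of log2 8.63 ± 0.56 (SE, edgeR adjusted p = 7.14e-06) was by value the largest rise of any member from 5 to 8 DPA. That of Csa09g096810 was close, at 8.57 ± 0.46 (SE). With 1 library left out, the first change of Csa02g039340 ran from 8.36 to 9.18. That of Csa07g063460 was 10.18 without 5 DPA replicate 2, and that of Csa10g043160 was 9.91 without 5 DPA replicate 3. The later fall of Csa02g039340, at log2 -1.17 ± 0.4 (SE, edgeR adjusted p = 0.0427), was weak. It was not called without 5 DPA replicate 1, without any one of the 8 DPA replicates, or without 11 DPA replicate 1 or 3 (adjusted p from 0.0564 to 0.122). The 2 steps differed (adjusted p of the difference 5.29e-05). Other peaks were fragile as well. Csa16g047170 lost its second-step call without 5 DPA replicate 1, any single 8 DPA replicate or 11 DPA replicate 1 (edgeR adjusted p from 0.0564 to 0.127). Csa02g075330, chosen after its values were seen, lost its first call without replicate 1 or 2 of 5 or 8 DPA (0.0843 to 0.0945). Its second was lost without 8 DPA replicate 1 or 2 (0.0749 and 0.0719). With the replicate number as a block both were lost (0.0817 and 0.0612).

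Smaller classes made up the rest of the members called in at least 1 of the 2 steps. The 9 members that rose in the first step and were not called in the second held 0.18% ± 0.0105, 0.843% ± 0.131 and 1.18% ± 0.0621 of the counts in order of age (SD, n = 3 each), and 8.6% of all genes tested had these calls. Levels of Csa11g052000, Csa10g043160 and Csa12g086580, chosen after their values were seen, were unequal at 5 DPA, and in the same order of replicates. Csa11g052000 had 0.192, 3.74 and 31.8 CPM, Csa10g043160 had 0.128, 2.06 and 15.7 CPM, and Csa12g086580 had 0.192, 1.81 and 9.43 CPM in replicates 1, 2 and 3. The values of replicate 1, the shallowest library, rest on 3, 2 and 3 counts, at or under the floor. At 8 DPA these genes had 1112.3 to 1616.5, 1115.3 to 1642.8 and 529.7 to 901.4 CPM.

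The first-step log2 changes of that trio were 6.65 ± 1.17, 7.64 ± 1.08 and 7.28 ± 0.92 (SE, edgeR adjusted p = 0.00193, 0.000556 and 0.000286). Without 5 DPA replicate 3 they were 9.1, 9.91 and 9.07. Their second step was not called. For Csa12g086580 its log2 change was 1.96 (edgeR adjusted p = 0.0535). It was called without 5 DPA replicate 1, 2 or 3 (0.0173, 0.0431 and 0.00652), with no filter on low counts (0.0491), with the replicate number as a block (0.0469), with the first run alone (0.0349) and in a fit of only the 2 ages (0.00175). In that fit Csa11g052000 and Csa10g043160 were called too (0.00637 and 0.024), against 0.419 and 0.507 with all ages. Another 4 members fell in the first step and were not called in the second, and held 0.353% ± 0.00925, 0.222% ± 0.0227 and 0.211% ± 0.0249 of the counts in order of age (SD, n = 3 each), where the background was 8.24%. Csa11g087800, chosen after its values were seen, alone fell and then rose, at 828.8 to 919.7 CPM at 5 DPA, 384.6 to 483.2 at 8 DPA and 543.8 to 815.0 at 11 DPA. Its log2 changes were -1.03 ± 0.17 (SE, edgeR adjusted p = 0.00117) and 0.7 ± 0.16 (SE, adjusted p = 0.00815), and 2.29% of all genes tested had these calls.

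**Figure D3:**
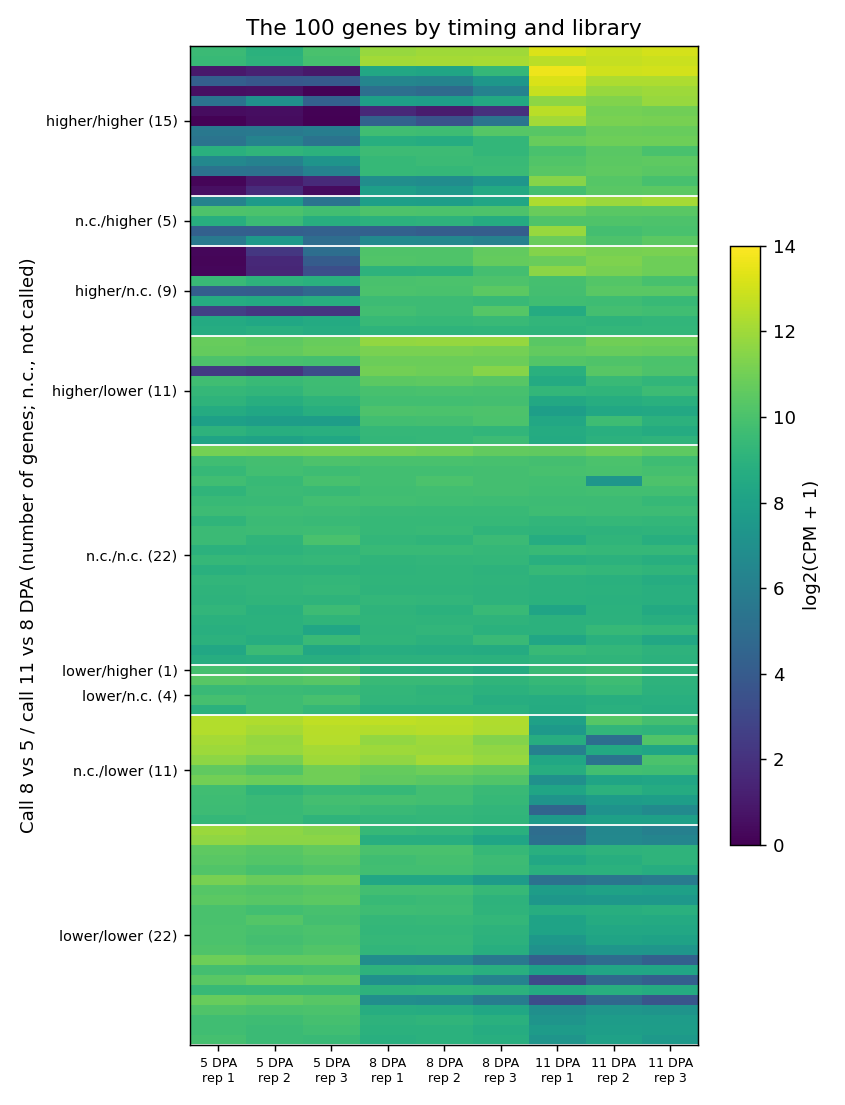
Log2(CPM + 1) of the 100 genes (lines, ordered by their calls in the 2 steps) in the 9 libraries (columns). Most of the 15 genes called higher in both steps go from dark at 5 DPA to bright at 11 DPA. The 22 called lower in both darken by unequal amounts, with ratios of highest to lowest age mean from 1.75 to 101.1 and a median of 4.28. Most of the 22 called in neither keep a like shade across the ages.

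The 22 members called in neither step were a smaller share than in the background, where 42.7% of all genes tested had no call in either. They held 1.56% ± 0.101, 1.57% ± 0.0252 and 1.44% ± 0.039 of the counts at the 3 ages (SD, n = 3 each), and 15 of them were among the 100 highest genes at every age. The ratio of their highest to lowest age mean ran from 1.09 to 1.66. No call in either step did not mean no change: some of the 22 were called from 5 to 11 DPA, and others were not. Over that span Csa19g006320 fell by log2 -0.46 ± 0.11 (SE, edgeR adjusted p = 0.0048). Csa09g085140 rose by log2 0.36 ± 0.09 (SE, adjusted p = 0.00856). Both were named after their values were seen. The least changed of all members was Csa11g094240, with 849.9, 903.4 and 1080.8 CPM at 5 DPA, then 1022.2, 1019.9 and 958.4 CPM at 8 DPA and 895.3, 1053.8 and 795.1 CPM at 11 DPA. All 3 ages overlapped, and no log2 change between ages exceeded 0.05. Csa02g067330 was next, between 660.8 and 877.7 CPM in all libraries and with no log2 change over 0.08. The most abundant of this class, Csa15g002100, chosen after its values were seen, had 2132.6, 2088.6 and 2180.4 CPM at 5 DPA and 1478.7 to 1852.7 CPM at 11 DPA. It was not called (log2 change from 5 to 11 DPA -0.36, edgeR adjusted p = 0.0539), but those ages did not overlap.

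Members also differed among themselves in how evenly replicates measured them. The median coefficient of variation over 3 replicates was 11.7%, 10.6% and 15.5% at 5, 8 and 11 DPA, against 12.6%, 9.19% and 12.9% over all genes tested. The highest replicate was at least 2 times the lowest for 15 members at 5 DPA, 7 at 8 DPA and 19 at 11 DPA, against 15.6%, 9.12% and 16.7% of all genes tested. In the next 100 genes by rank the counts were 5, 3 and 13, and the median coefficients 9.03%, 5.16% and 11.4%. At 5 DPA, 6 members in replicate 2 and 4 in replicate 3 were at least 2 times both other replicates. In replicates 1 and 3 of that age, 4 members each were at or under 50% of both others. In 11 DPA replicate 1, 10 members were at or under 50% of both other replicates and 3 were at least 2 times both. That library also had the highest share for 2 of the 3 classes that rose in the second step (6.87% and 1.34% of its counts; the single gene that fell and then rose was highest in replicate 2) and the lowest for the 3 classes that fell in it (0.247%, 0.434% and 0.734%). Its part in these results was tested only by leaving it out.

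Ranking per unit of length changed the order. With levels divided by the deposited length, 62 of the 100 remained among the 100 highest genes, and 1 fell beyond rank 1000. That gene was the long Csa07g063280, at rank 2136. The highest genes per kilobase were Csa09g075850, with a level of 8812.4 when per-length levels of a library sum to 1000000, and Csa09g096810, with 8202.0. Members ran from 562 to 17302 bases with a median of 1866, against 1917 for all genes and 2267 for genes tested. Whether the deposited length includes introns is not stated in the sources used here.

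By the chromosome number in the ID, members were uneven across the genome. The 20 chromosomes were taken in 3 groups: group 1 of chromosomes 4, 7, 8, 11, 14 and 19, group 2 of chromosomes 1, 3, 6, 10, 13, 16 and 18, and group 3 of chromosomes 2, 5, 9, 12, 15, 17 and 20. Group 1 held 31 members, group 2 held 22 and group 3 held 47, where the groups hold 33.0%, 31.7% and 35.3% of the 85274 genes with such a number. The next 100 genes by rank were split 22, 30 and 48, and the 800 after those 29.0%, 31.1% and 39.1%. The larger number in group 3 was therefore not particular to the 100.

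Group 3 took a growing part of the members' counts. It had 38.0%, 40.3% and 38.8% of them at 5 DPA, 46.7%, 46.5% and 47.0% at 8 DPA, and 57.3%, 56.7% and 55.3% at 11 DPA. The ages were fully apart, at 39.0% ± 1.14, 46.7% ± 0.244 and 56.5% ± 1.03 (SD, n = 3 each). Group 1 went from 34.4% ± 0.532 to 30.1% ± 0.45 and 24.0% ± 0.0693, and group 2 from 26.6% ± 0.939 to 23.2% ± 0.63 and 19.6% ± 1.1 (SD, n = 3 each). Among the counts of all other placed genes, group 3 stood at 37.3%, 36.9% and 37.0% at the 3 ages.

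**Figure D4:**
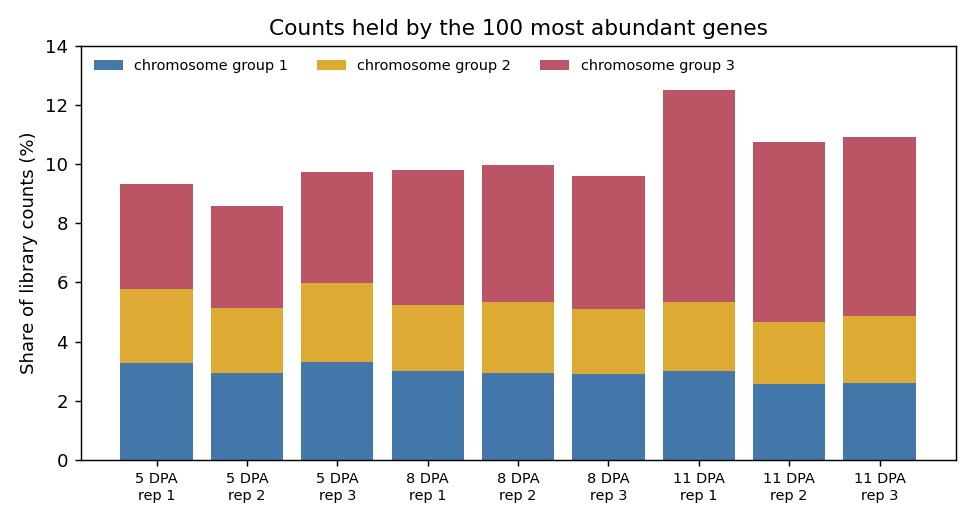
Share of library counts (%) held by the 100 genes in each of the 9 libraries, with each bar divided into the 3 chromosome groups. The 3 libraries of 11 DPA reach 10.8% to 12.5%, above the 8.58% to 9.97% of the younger ones, and group 3 alone reaches 6.03% to 7.17% at 11 DPA against 3.46% to 4.64% before.

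Most of this rise lay in genes of chromosome 9. Its 11 members held 0.634%, 0.535% and 0.707% of library counts at 5 DPA, 1.24%, 1.3% and 1.32% at 8 DPA, and 4.7%, 3.34% and 3.5% at 11 DPA. The ages did not overlap, and 6 of the 11 were members called higher in both steps. With the chromosome 9 genes left out, group 3 had 34.6% ± 1.49, 38.7% ± 0.304 and 34.4% ± 2.8 of the counts of the other 89 members at 5, 8 and 11 DPA (SD, n = 3 each), so the outer ages differed by less than their SD. Without the 10 highest members the values were 45.7% ± 1.09, 52.2% ± 0.93 and 41.7% ± 1.95.

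The other chromosomes differed in number and timing. Chromosome 11 also had 11 members, but it carries 8.14% of the placed genes against 5.87% for chromosome 9. Chromosome 2 had 10 members, chromosomes 7 and 12 had 8 each, chromosome 4 had 1 and chromosome 6 had none (0). Members on chromosome 20 all had their highest mean at 5 DPA (4 of 4), and their share of counts went from 0.383% ± 0.0164 to 0.244% ± 0.0179 and 0.132% ± 0.0161 (SD, n = 3 each). On chromosome 12, 5 of its 8 members had their highest mean at 8 DPA. A peak at that age was called only for Csa12g036130 and Csa12g001920 of these, both named after their values were seen.

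**Figure D5:**
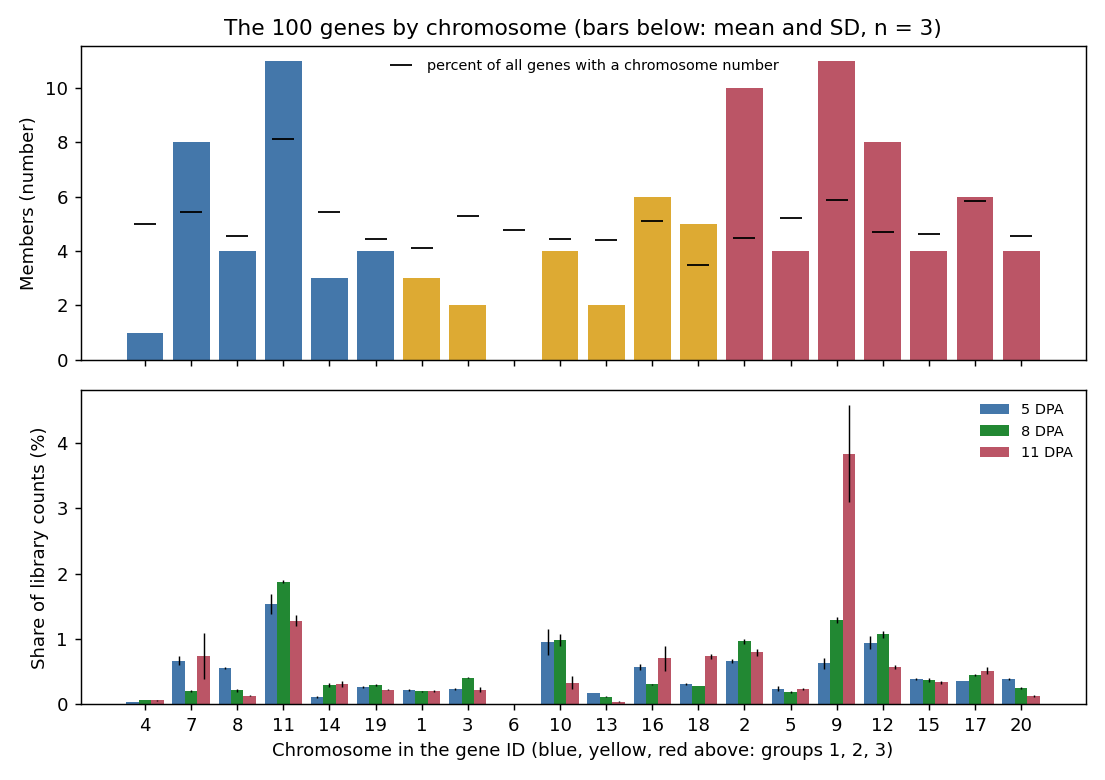
Number of members (upper panel, with a dash at the percent of all placed genes) and their share of library counts in % at 5, 8 and 11 DPA (lower panel, mean with SD, n = 3) for each of the 20 chromosomes in the gene ID. Chromosome 9 stands out at 11 DPA with 3.84% ± 0.741, and no other chromosome exceeds 1.88% at any age.

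Neighbouring IDs recurred among the members. Besides the trio and the pair on chromosome 9, Csa12g065470 and Csa12g065490 are 2 IDs apart, Csa02g067290 and Csa02g067330 are 4 apart, and Csa07g022050 and Csa07g022120 are 7 apart. Of these, Csa12g065490, Csa02g067290 and Csa07g022120 were chosen after their values were seen. Their log2 CPM correlated over the 9 libraries at r = 0.94, 0.95 and 0.99, and that of Csa09g096800 and Csa09g096810 at 0.84, all with the 3 ages and their depths in common. The genes of each pair lie on the same strand in the deposited table. The pair on chromosome 2 was called in neither step, the pair on chromosome 7 fell in both, and Csa12g065470 and Csa12g065490 both fell in the second.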

How the data were processed

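The authors deposited whole-number counts per gene for each sequencing run, with a strand and a length in bases per gene. The tools in the submitters' processing notes are, without their roles, HISAT2 2.0.4, Bowtie2 2.3.4.1, Trimmomatic, FastQC and bcl2fastq 2.20.0. Not given in the sources used here are the genome build, the annotation, the counting tool, and how it treated strand and reads with several matches. The 2 runs of each replicate were added up. The resequenced column of 5 DPA replicate 1 was left out, because it equals that of replicate 2 at all 89418 genes.

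CPM scale counts to 1000000 per library. Ages were compared with the quasi-likelihood test of edgeR 4.0.16 (R 4.3.3) in 1 fit of all 9 libraries, after filterByExpr and TMM scaling. Benjamini-Hochberg adjustment ran over 63017 genes with a threshold of 0.05. Simulated data tested this threshold for 8 versus 5 DPA. Genes made to differ by a factor of 1.5 were found at a rate of 5.71% (n = 70). The rate rose to 50.7% for a factor of 2 (n = 71) and to 89.8% for a factor of 4 (n = 59). False calls numbered 6 in a run of 62153 genes. A member that was not called may therefore still have changed, even by a factor of 2. SDs are over 3 replicates. Each SE of a log2 change is the absolute log2 change divided by the square root of edgeR's F statistic. Sums, shares and figures used Python 3.11.15 with pandas 2.3.3, NumPy 2.4.6 and Matplotlib 3.10.9. The labels call the replicates biological. Each p-value weighs a difference between ages against the spread between replicates, which was estimated over all ages in the fit.

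The members, timing classes, chromosome groups and tests were chosen with earlier results of these data known. Genes were named by a rule: the 10 highest members, the 2 largest called rises and falls of each step without overlap, the 2 least changed, the most uneven member at each age, the 3 just inside and outside the 100, and the 2 highest per kilobase. Others are marked as chosen after their values were seen. Alternatives were DESeq2 1.42.0, its size factors, no filter, 2 ages alone, the replicate number as a block, the first run alone, each library left out, and other rankings. Runs summed as deposited for the tests, scaling to counts outside the 100, and ranking by the highest age mean were added after seeing the data. DNA-binding data of the series were not used here.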

Additional observations from a re-analysis of the deposited data

How the results depend on the processing

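The share of counts held depends on how many genes are taken and how they are ranked. For the 50 highest genes it was 5.93%, 7.06% and 8.9% at 5, 8 and 11 DPA, and for the 200 highest 13.3%, 13.7% and 15.0%. Ranked per kilobase, it was 8.24%, 8.47% and 10.2%. Ranked by the mean of log2(CPM + 1) it was 9.54%, 9.68% and 7.24%, so that 11 DPA was lowest instead of highest, and ranked by the highest age mean 8.95%, 9.15% and 11.4%; these rankings shared 77 and 79 genes with the 100. With a library left out it ran from 8.5% to 9.67%, from 9.53% to 9.89% and from 10.3% to 11.8%, and the number of members whose steps differ ran from 26 to 44. Counts of members called in each direction stayed within 1.5 times under every alternative run, and no called direction reversed. Replicate numbers did not pair the libraries (correlations of deviations from -0.0693 to 0.185). With the replicate block, 57 of 62, 63 of 65 and 75 of 80 calls were kept for 8 versus 5, 11 versus 8 and 11 versus 5 DPA, and 37 members had steps that differ; the second step of Csa12g086580 became called (adjusted p = 0.0469). DESeq2 kept 60, 65 and 78, and gave no adjusted p for 2 members in the first and last comparison, Csa11g052000 and Csa10g043160. Scaling to the counts outside the 100 moved the median difference between steps over all genes from log2 -0.0187 to -0.121, and 45 members then had steps that differ. With only 2 ages in the fit, the second-step call of Csa10g035950 was lost (adjusted p = 0.0752). Depth limits the fold of the members near the floor at 5 DPA. The effect of reads shared by similar genes was not tested.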
